A study of Homo sapiens with 6 samples.

Results

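The mRNAs of 10 DNA replication licensing genes were compared between A549 cells with and without the MIR21 gene. They were taken by symbol from the deposited expression table, were MCM2, MCM3, MCM4, MCM5, MCM6, MCM7, MCM10, CDC6, CDT1 and GMNN, and made up 10 of the 58174 genes listed there. A549 cells are an established human line that comes from an adenocarcinoma of the lung. Parental cells gave 3 libraries (Ctrl), and cells that lost MIR21 through CRISPR/Cas9 gave another 3 (MIR21-KO). No drug or other agent separated the groups, and all cells were harvested 48 h after seeding. For the knockout, plasmids for Cas9 and for guide RNAs on both sides of the locus were transfected, and single cells were sorted and expanded, a step that the parental cells did not pass. It is not stated how many clones the MIR21-KO libraries represent, so that the deletion and the choice of clones cannot be told apart. The study describes these libraries as independent samples and its experiments as biological replicates, without saying whether the samples of a group were separate cultures or clones. The p-values measure the spread between these libraries.

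Before a cell copies its DNA, origins of replication are licensed in late mitosis and G1 phase. The origin recognition complex (ORC) binds the DNA, CDC6 and CDT1 join it, and together they load pairs of MCM2-7 rings, the inactive form of the replicative helicase. Geminin, the protein encoded by GMNN, holds CDT1 in check after S phase has begun, so that no origin is licensed again in the same cycle. MCM10 acts later, when loaded rings are turned into moving forks. Most of these genes are classical targets of E2F transcription factors and are transcribed mainly in cycling cells.

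The values were FPKM, that is fragments scaled to gene length and library size. Reads behind them could be recovered from the table and summed to between 10631667 and 14345209 per library. The 10 licensing genes were all well covered, with between 355 reads for GMNN and 6566 reads for MCM7 as the lowest and highest counts in any library. MIR21 itself is listed at 0 in all 6 libraries, Ctrl included, so that the deletion could not be checked on it. The epithelial markers KRT8, KRT18 and KRT19 were abundant, with a summed level of all 5 epithelial markers of 1194 to 1288 FPKM in Ctrl and 776 to 1106 FPKM in MIR21-KO libraries. EPCAM was at most 1.65 FPKM in any library, and CDH1 fell from 8.18 ± 0.584 to 2.86 ± 0.147 FPKM (SD, n = 3; log2 fold change -1.48 ± 0.0973 SE, FDR = 0.000175). Of the markers of other cell types, none of 4 endothelial and 2 of 5 fibroblast markers (COL1A1 and LUM) reached 0.5 FPKM in any library. The leukocyte marker CD14 was at 3.19 to 5.10 FPKM, PTPRC was at most 0.0175 FPKM, and CD3E and COL1A2 were at 0 throughout.

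All 10 licensing genes had lower levels upon MIR21 deletion, and in 10 of 10 every MIR21-KO library lay below every Ctrl library. Such a separation was seen for 25.2% of the 16006 genes tested. All but CDT1 (9 of 10) passed an FDR under 0.01, the threshold used for calling a gene changed, whereas 8.38% of all genes tested were called lower and 7.66% higher. The median log2 fold change of the 10 genes was -0.79, compared with -0.02 for all genes tested, with a range from -1.15 for MCM10 to -0.50 for MCM6. MCM10, MCM2 and CDC6 fell by more than 2-fold. In bulk RNA, fewer cycling cells and less of these mRNAs per cell cannot be told apart. Of 6 mRNAs that mark cycling cells (MKI67, TOP2A, CCNA2, CCNB1, BIRC5 and AURKA), 4 were also called lower, and their summed level was 480.1 to 501.3 FPKM in Ctrl and 273 to 304 FPKM in MIR21-KO libraries. The part of these markers in the fall of the licensing genes was not tested.

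**Figure D1:**
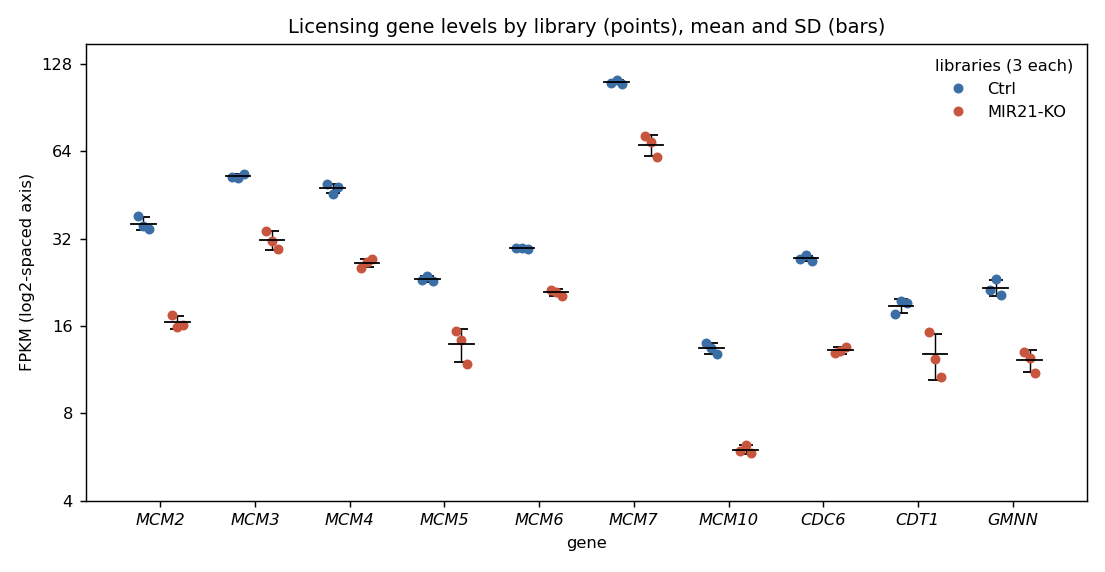
FPKM of the 10 licensing genes on a log2-spaced axis, with a point for each of 3 Ctrl and 3 MIR21-KO libraries, and mean and SD as black lines. For each gene all 3 MIR21-KO points lie below all 3 Ctrl points, with MCM7 the highest and MCM10 the lowest in both groups.

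The promoters of these genes are shown because the genes fell together. RefSeq sequences from 250 bases before to 50 bases after the annotated start (GRCh38.p14) were matched for 8 of the 10 genes, with 11 starts in all. MCM4 and MCM5 had no entry. They were searched on both strands for the E2F letters TTTCCCGC, TTTCGCGC, TTTGCCGC and TTTGGCGC, where TTTCGCGC on the minus strand can overlap TTTCGCGC or TTTGGCGC on the plus strand. Such a word was found for 7 of the 8 genes, MCM10 being the exception, and in 7 of their 11 promoters. Among all 35116 promoters in the RefSeq table, 1164 (3.31%) held such a word. Counted per gene, 633 of 9355 tested genes with an entry (6.77%) did. Fewer than 80% of the 16006 genes tested had an entry, so that this share is incomplete. The shares of called and other genes are therefore not reported here. Among other genes of the pathway, 1 of 6 ORC genes, 2 of 3 MCM relatives, 3 of 10 genes of CDT1 turnover and 5 of the 9 genes of helicase activation with an entry (of 13) held such a word. The 30 bases around the matches that carry this observation are given 5′ to 3′ on the strand of the gene, with the matched letters in capitals.
MCM2, chr3:127598404-127598433, plus strand: tgaaccactTTTCGCGCGAAAcctggttgt
MCM3, chr6:52284728-52284757, minus strand: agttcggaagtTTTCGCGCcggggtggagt
MCM6, chr2:135876575-135876604, minus strand: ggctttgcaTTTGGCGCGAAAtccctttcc
MCM6, chr2:135876513-135876542, minus strand: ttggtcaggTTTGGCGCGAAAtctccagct
MCM7, chr7:100101388-100101417, minus strand: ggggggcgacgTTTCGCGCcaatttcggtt
CDC6, chr17:40287875-40287904, plus strand: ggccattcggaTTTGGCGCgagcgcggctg
CDT1, chr16:88803743-88803772, plus strand: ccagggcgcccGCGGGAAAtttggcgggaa
GMNN, chr6:24775322-24775351, plus strand: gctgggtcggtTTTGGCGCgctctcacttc

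In MCM2 and MCM6 a word on each strand overlapped, giving 12 matched letters in a row. MCM6 held such an overlap at 2 places, beginning 152 and 90 bases before the start. In MCM2 it began 2 bases after the start, in MCM3 and MCM7 the nearest word began 4 and 9 bases before it, and in CDC6 7 bases after it. MCM3 and MCM7 each held a further word, 174 and 187 bases before the start. CCAAT (the letters of the CCAAT box) was found for 6 of the 8 genes, in 8 of their 11 promoters and in 34.6% of all promoters. GGGCGG (the GC box) was found for 6 of the 8 genes, in 9 of their 11 promoters and in 45% of all promoters. Genes with several starts count more than once among promoters. TTTGAA, the letters of the cell cycle homology region, was found for 0 of the 8 genes and in 15.2% of all promoters. These are matches of letters, and binding of a factor was not measured.

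**Figure D2:**
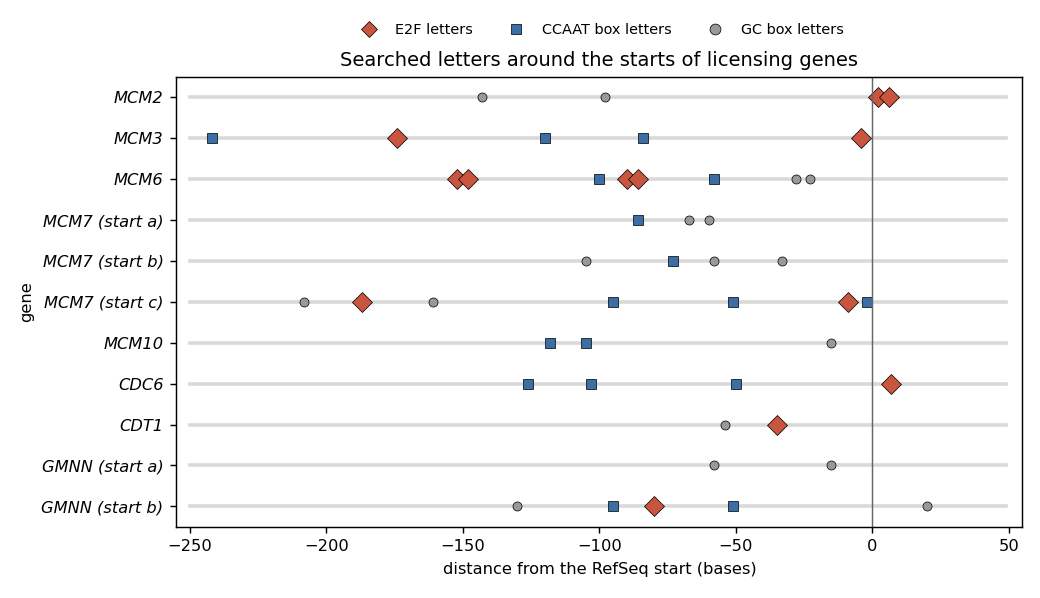
Matches to the E2F, CCAAT box and GC box letters on either strand, plotted by the distance in bases of their first letter from the RefSeq start, for 11 starts of 8 licensing genes. E2F letters (diamonds) lie within 10 bases of the start for MCM2, MCM3, MCM7 and CDC6, farther upstream for MCM6, CDT1 and GMNN, and are missing from the MCM10 window.

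The 6 subunits of the MCM2-7 ring were all called lower. MCM2 was at 38.3, 35.4 and 34.6 FPKM in the Ctrl libraries and at 17.4, 15.8 and 16.2 FPKM in the MIR21-KO libraries. It fell to 45.6% of Ctrl, from 36.1 ± 1.93 to 16.5 ± 0.819 FPKM (SD, n = 3), with a log2 fold change of -1.13 ± 0.0756 (SE) and an FDR of 0.000186. This was the largest fall among the 6 subunits, and the MIR21-KO libraries lay far below the lowest Ctrl library. MCM4 came next, with 49.3, 45.7 and 48.1 FPKM in Ctrl and 25.4, 26.7 and 27.1 FPKM in MIR21-KO libraries (log2 fold change -0.85 ± 0.0689, FDR = 0.000356). MCM4 forms the catalytic core of the ring together with MCM6 and MCM7. The 3 MIR21-KO values of MCM4 lay close together and far below Ctrl.

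MCM3, MCM5 and MCM7 fell to about the same extent, to 60.2%, 59.6% and 61.0% of Ctrl. MCM3, which lies between MCM5 and MCM7 in the ring, was at 52.3, 51.8 and 53.6 FPKM in Ctrl and at 34.0, 31.3 and 29.5 FPKM in MIR21-KO libraries (log2 fold change -0.73 ± 0.0768, FDR = 0.000935). MCM5, at the gate of the ring through which DNA enters, was at 23.1, 23.9 and 22.8 FPKM in Ctrl and at 15.4, 14.3 and 11.9 FPKM in MIR21-KO libraries (log2 fold change -0.75 ± 0.106, FDR = 0.00295). MCM7, the most abundant of the 10 mRNAs, was at 109.7, 112.7 and 109.5 FPKM in Ctrl and at 72.1, 69.2 and 61.2 FPKM in MIR21-KO libraries (log2 fold change -0.72 ± 0.0856, FDR = 0.00155). In each of these 3 genes MIR21-KO replicate 1 was the highest and replicate 3 the lowest of the MIR21-KO libraries, and their spread was wider than that of Ctrl. MCM6 fell least, from 29.7, 29.8 and 29.4 FPKM in Ctrl to 21.4, 20.99 and 20.3 FPKM in MIR21-KO libraries, or to 70.6% of Ctrl (log2 fold change -0.50 ± 0.0622, FDR = 0.00178). Relative to the mean it varied least of the 10 genes in both groups, with an SD of 0.194 FPKM in Ctrl and 0.516 FPKM in MIR21-KO. MCM5, MCM6 and MCM7 lost their call in fits without Ctrl replicate 1, 2 or 3 or MIR21-KO replicate 2, where their FDRs ranged from 0.0118 to 0.0173 and 6 of the 10 licensing genes were called lower. Of all genes tested, 2.30% to 2.50% were called lower in the same fits. Without MIR21-KO replicate 1 or 3, 10 and 9 of the licensing genes were called lower, beside 7.68% and 11.25% of all genes tested.

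Each ring holds 1 copy of each subunit, but the mRNAs were far from equal. The summed level of MCM2 to MCM7 was 302, 299 and 298 FPKM in Ctrl and 186, 178 and 166 FPKM in MIR21-KO libraries. In Ctrl, MCM7 supplied 36.9% ± 0.700 of this sum and MCM5 7.76% ± 0.189 (SD, n = 3), and the level of MCM7 was 4.72 to 4.79 times that of MCM5. These values depend on the gene length used. Per length of the principal transcript, MCM7 in Ctrl was at 3.37 to 3.42 times MCM5. MCM5 then supplied 11.2% and MCM6, the lowest, 7.57% of the sum. In deposited FPKM, the share of MCM2 was 12.7%, 11.8% and 11.6% in Ctrl and 9.37%, 8.89% and 9.73% in MIR21-KO libraries, a difference of -2.71 percentage points. The share of MCM6 was 9.81%, 9.95% and 9.87% in Ctrl and 11.5%, 11.8% and 12.2% in MIR21-KO libraries, a difference of 1.96 percentage points. For both the groups did not overlap, and the exact two-sided permutation p was 0.1, the smallest that 3 against 3 libraries can give (0.3 after Benjamini-Hochberg adjustment over the 6 subunits). On the deposited FPKM scale, the level of MCM2 was 1.18 to 1.29 times that of MCM6 in Ctrl libraries and 0.755 to 0.814 times MCM6 in MIR21-KO libraries, values that shift with the gene length used. The shares of MCM3, MCM4, MCM5 and MCM7 overlapped between groups, with differences between -0.912 and 1.24 percentage points and exact permutation p-values from 0.2 to 0.9.

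**Figure D3:**
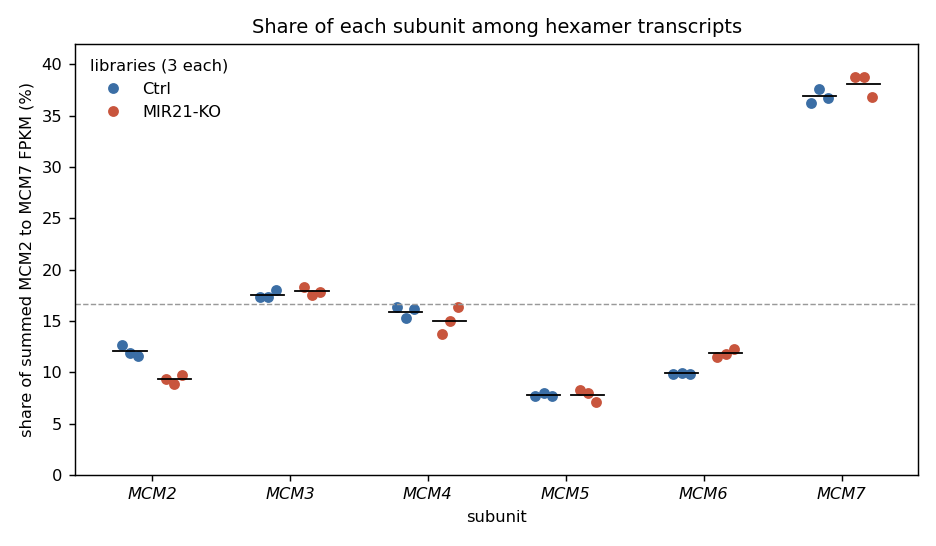
Share of each subunit, in percent, in the summed FPKM of MCM2 to MCM7, with a point per library (3 Ctrl, 3 MIR21-KO), the mean as a black line and an equal share of all subunits as a dashed line. MCM2 (lower) and MCM6 (higher) are the subunits whose MIR21-KO points do not overlap Ctrl, and MCM7 holds the largest share throughout.

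CDC6 and CDT1 bring the ring to ORC. CDC6, an ATPase of the ORC1 family, was at 27.2, 28.0 and 26.9 FPKM in Ctrl and at 12.9, 13.1 and 13.6 FPKM in MIR21-KO libraries. It fell to 48.1% of Ctrl (log2 fold change -1.05 ± 0.0644, FDR = 0.000139), the smallest FDR of the 10 genes, and was called in each of 19 other fits made at this threshold. CDT1 was at 17.5, 19.5 and 19.3 FPKM in Ctrl and at 15.2, 12.4 and 10.7 FPKM in MIR21-KO libraries, that is 18.8 ± 1.07 and 12.8 ± 2.30 FPKM (SD, n = 3). Its groups did not overlap, but with a log2 fold change of -0.57 ± 0.134 and an FDR of 0.0196 it was not called. MIR21-KO replicate 1 was the highest of the MIR21-KO libraries, and without it the FDR of CDT1 was 0.00414 with a log2 fold change of -0.70. Over 19 other fits at this threshold, CDT1 was called in 6, and its FDR ranged from 0.000163 to 0.0741. The calls came without MIR21-KO replicate 1, with scaling by total reads (FDR = 0.00785), with protein-coding genes alone (0.00785), by voom on recovered reads (0.00761) and with trends on GC content and length removed from each library, without or with a replicate block (0.000163 and 0.00414). The highest FDRs were 0.0741 without MIR21-KO replicate 2, 0.0719 without Ctrl replicate 3 and 0.0692 without Ctrl replicate 2.

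GMNN, the inhibitor of CDT1, was at 21.3, 23.2 and 20.6 FPKM in Ctrl and at 13.1, 12.4 and 11.1 FPKM in MIR21-KO libraries. It fell to 56.2% of Ctrl (log2 fold change -0.83 ± 0.0908, FDR = 0.00114). The ratio of CDT1 to GMNN was 0.824, 0.841 and 0.938 in Ctrl and 1.17, 0.997 and 0.968 in MIR21-KO libraries, and thus 1.20-fold higher upon MIR21 deletion, with no overlap between groups. Per principal transcript length, the ratio was 0.432 to 0.492 in Ctrl and 0.508 to 0.612 in MIR21-KO libraries, so that its level depends on the gene length used, but its fold change does not. The exact two-sided permutation p was 0.1, the smallest possible with 3 against 3 libraries, so that the difference could not pass a threshold of 0.05. The ratio was not recomputed with GC and length trends removed. In that fit the log2 fold changes of CDT1 and GMNN were -0.70 and -0.76, closer together than the -0.57 and -0.83 found without this removal. MCM10, which binds the ring when the fork is set up, was the least abundant of the 10 mRNAs. It was at 14.0, 13.4 and 12.8 FPKM in Ctrl and at 5.92, 6.25 and 5.85 FPKM in MIR21-KO libraries, and fell to 44.8% of Ctrl (log2 fold change -1.15 ± 0.0765, FDR = 0.000186). The MIR21-KO libraries lay close together, well below the lowest Ctrl library.

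**Figure D4:**
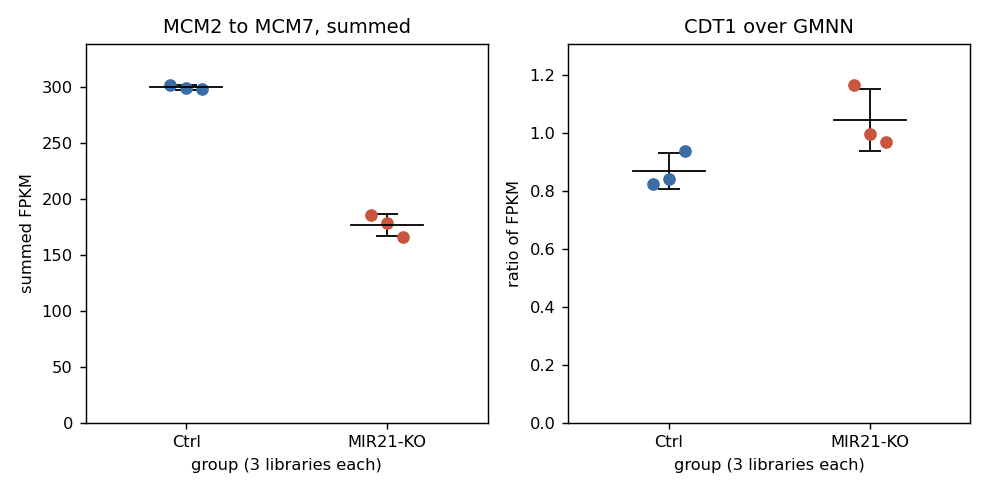
Summed FPKM of MCM2 to MCM7 (left) and ratio of CDT1 to GMNN FPKM (right) by group, with a point per library and the mean and SD in black, both axes starting at 0. The sum was 298 to 302 FPKM in Ctrl and 166 to 186 FPKM in MIR21-KO, whereas the ratio was 0.824 to 0.938 and 0.968 to 1.17.

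Ordered by level, Ctrl libraries held MCM7, MCM3, MCM4, MCM2, MCM6, CDC6, MCM5, GMNN, CDT1 and MCM10 mRNA from high to low on the deposited FPKM scale. Only MCM5 (22.8 to 23.9 FPKM) and GMNN (20.6 to 23.2 FPKM) overlapped as neighbours in this order. In MIR21-KO libraries MCM6 stood above MCM2 and MCM5 above CDC6, and the ranges of MCM5, CDC6, CDT1 and GMNN ran into each other, from 11.1 to 15.4 FPKM between the lowest GMNN and the highest MCM5 value. The deposited lengths cover all annotated exons of a gene and were 1.03 (CDT1) to 2.08 (MCM5) times the length of the principal transcript. Per principal transcript length, MCM7 was still the highest in both groups, whereas in Ctrl MCM5 moved from the seventh to the fifth place and CDT1 rather than MCM10 was last. In MIR21-KO libraries MCM6 (22.4 to 23.6) and MCM2 (21.4 to 23.5) overlapped on that scale, whereas in Ctrl libraries MCM2 (46.8 to 51.8) stood above MCM6 (32.4 to 32.8). The order of levels between genes thus depends on the length used, but fold changes between groups do not.

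MCM7 is also the host of a microRNA cluster. MIR106B, MIR93 and MIR25 lie inside the gene on its strand (MCM7, chr7:100092728-100101940, minus strand, GRCh38). Their mature products are shown with the seed (bases 2 to 8) in capitals, next to the product of the deleted gene, which has another seed. The first pair of cluster members shares its seed.
miR-106b-5p: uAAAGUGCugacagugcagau
miR-93-5p: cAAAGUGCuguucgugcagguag
miR-25-3p: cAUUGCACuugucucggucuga
miR-21-5p: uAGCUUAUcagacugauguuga
Reads listed for MIR25 were 12, 9 and 27 in Ctrl and 16, 16 and 9 in MIR21-KO libraries, and those for MIR93 and MIR106B were between 0 and 3 in each library. These reads cannot be told apart from unspliced MCM7 transcripts, and polyA libraries do not measure mature microRNAs. The levels of the cluster's products were thus not measured in these libraries. The study also sequenced microRNAs of parental and MIR21-KO A549 cells, and those data were not used here.

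The 3′ UTRs of the licensing genes were searched for the 7 letters that pair with the seed of miR-21-5p. The longest annotated 3′ UTR of GENCODE 29 was used, and ATAAGCT was found in 1 of the 10 genes, MCM10, at base 276 of 1944. Of 18871 protein-coding genes with a 3′ UTR, 1664 (8.82%) held these letters. The site is shown with its 7 letters in capitals.
MCM10 3′ UTR: atgcttgttaagcccATAAGCTttgcctgc
CTACCTC, the letters that pair with the seed of let-7a-5p (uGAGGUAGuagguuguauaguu), were found in 0 of the 10 genes and in 9.82% of all such genes. Both searches describe letters, and regulation through them was not measured.

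ORC, which marks the origins, was represented by 6 genes. All 6 had lower values in every MIR21-KO than in every Ctrl library, and 3 were called lower, with a median log2 fold change of -0.53. Of all genes tested, 25.2% were separated in this way and 8.38% were called lower. ORC1, the cell cycle regulated subunit, fell most, from 11.1 ± 0.445 to 5.73 ± 0.579 FPKM (SD, n = 3; log2 fold change -0.95 ± 0.0965, FDR = 0.000855). ORC2 (log2 fold change -0.53, FDR = 0.00358) and ORC5 (-0.53, FDR = 0.00508) were also called, whereas ORC3 (-0.40, FDR = 0.0252), ORC4 (-0.31, FDR = 0.0558) and ORC6 (-0.57, FDR = 0.0147) were not. ORC1 was thus the subunit closest in fold change to CDC6, to which it is related. In fits that left out Ctrl replicate 1, 2 or 3 or MIR21-KO replicate 2, 1 of the 6 genes was called. Of all genes tested, 2.30% to 2.50% were called lower in these fits. Without MIR21-KO replicate 1 or 3, 2 and 3 of the 6 genes were called, beside 7.68% and 11.25% of all genes tested called lower.

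Of the relatives and partners of the ring, MCM8, which with MCM9 forms a helicase of homologous recombination, fell from 11.3 ± 0.799 to 6.34 ± 0.797 FPKM (log2 fold change -0.83 ± 0.112, FDR = 0.00252). MCMBP, a chaperone of the MCM subunits, fell from 25.0 ± 0.686 to 18.3 ± 0.946 FPKM (-0.45 ± 0.0706, FDR = 0.0043). MCM9 was low, at 1.32 to 1.35 FPKM in Ctrl and 0.675 to 0.882 FPKM in MIR21-KO libraries, and was not called (log2 fold change -0.73, FDR = 0.0229). Of the relatives of geminin, which belong to multiciliated cells, MCIDAS was near 1 FPKM with overlapping groups, at 1.05 to 1.54 FPKM in Ctrl and 0.625 to 1.143 FPKM in MIR21-KO libraries, and GMNC was at most 0.0192 FPKM.

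The next step, the conversion of loaded rings into the active CMG helicase (CDC45, MCM2-7 and GINS), was covered by 13 genes. In 13 of 13 every MIR21-KO library lay below every Ctrl library, 9 were called lower, and the median log2 fold change was -0.65. The shares over all genes tested were 25.2% for such a separation and 8.38% for genes called lower. CDC45 was at 15.6, 15.5 and 14.2 FPKM in Ctrl and at 7.76, 7.40 and 6.12 FPKM in MIR21-KO libraries (log2 fold change -1.08 ± 0.108, FDR = 0.000826). All 4 GINS subunits were called lower, led by GINS4 with a fall from 13.6 ± 0.594 to 6.45 ± 0.313 FPKM (-1.06 ± 0.0786, FDR = 0.000256). DBF4, the activating subunit of the kinase that phosphorylates loaded MCM2-7, fell from 9.15 ± 0.195 to 4.27 ± 0.166 FPKM (-1.08 ± 0.0792, FDR = 0.000247), whereas its catalytic partner CDC7 fell less, from 6.30 ± 0.688 to 4.12 ± 0.318 FPKM (-0.60 ± 0.115, FDR = 0.00925). CDC45, GINS4 and DBF4 were the genes of this list with a fall of more than 2-fold. TOPBP1, MTBP, RECQL4 and DONSON, factors of helicase assembly, were not called, with log2 fold changes of -0.75, -0.48, -0.41 and -0.14. For MTBP and DONSON the highest MIR21-KO value lay only 0.024 and 0.045 FPKM below the lowest Ctrl value. Fits without Ctrl replicate 1, 2 or 3 called 4 of the 13 genes, those without MIR21-KO replicate 1 or 2 called 5 and 3, and the fit without MIR21-KO replicate 3 called 8. Of all genes tested, these fits called 2.30% to 2.50%, 7.68%, 2.37% and 11.25% lower, in the same order.

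Genes that act in the removal or inhibition of CDT1 and geminin changed in both directions. Of 10 such genes, 3 were called lower, 2 were called higher and 5 were not called. Among all genes tested, 8.38% were called lower and 7.66% higher. DTL, the receptor that brings chromatin-bound CDT1 to the CUL4 ubiquitin ligase, fell from 13.5 ± 0.971 to 6.93 ± 0.804 FPKM (log2 fold change -0.95 ± 0.111, FDR = 0.00143). SKP2, the F-box protein of the second ligase for CDT1, rose from 8.82, 7.61 and 8.25 FPKM in Ctrl to 13.8, 15.6 and 17.4 FPKM in MIR21-KO libraries (0.91 ± 0.109, FDR = 0.00161). The paralogous scaffolds of the first ligase differed in sign, with CUL4A falling from 14.1 ± 0.0987 to 10.7 ± 0.552 FPKM (-0.39 ± 0.0717, FDR = 0.00741). CUL4B rose from 18.9, 16.3 and 16.3 FPKM in Ctrl to 28.0, 29.96 and 38.1 FPKM in MIR21-KO libraries (0.88 ± 0.131, FDR = 0.00352). CUL1, the scaffold that works with SKP2, was called lower (-0.46 ± 0.0831, FDR = 0.00712). PCNA, the clamp on which DTL meets CDT1, was at 319.9 ± 14.6 and 262 ± 26.4 FPKM and was not called (-0.29 ± 0.103, FDR = 0.0734), and neither were SKP1, DDB1, FBXO5 and FZR1, with log2 fold changes from -0.53 to 0.04. In fits that left out 1 Ctrl replicate or MIR21-KO replicate 2, 0 (Ctrl replicate 3) or 1 of the 10 genes was called. In the same fits, 768 to 922 of the 16006 genes tested were called in either direction.

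**Figure D5:**
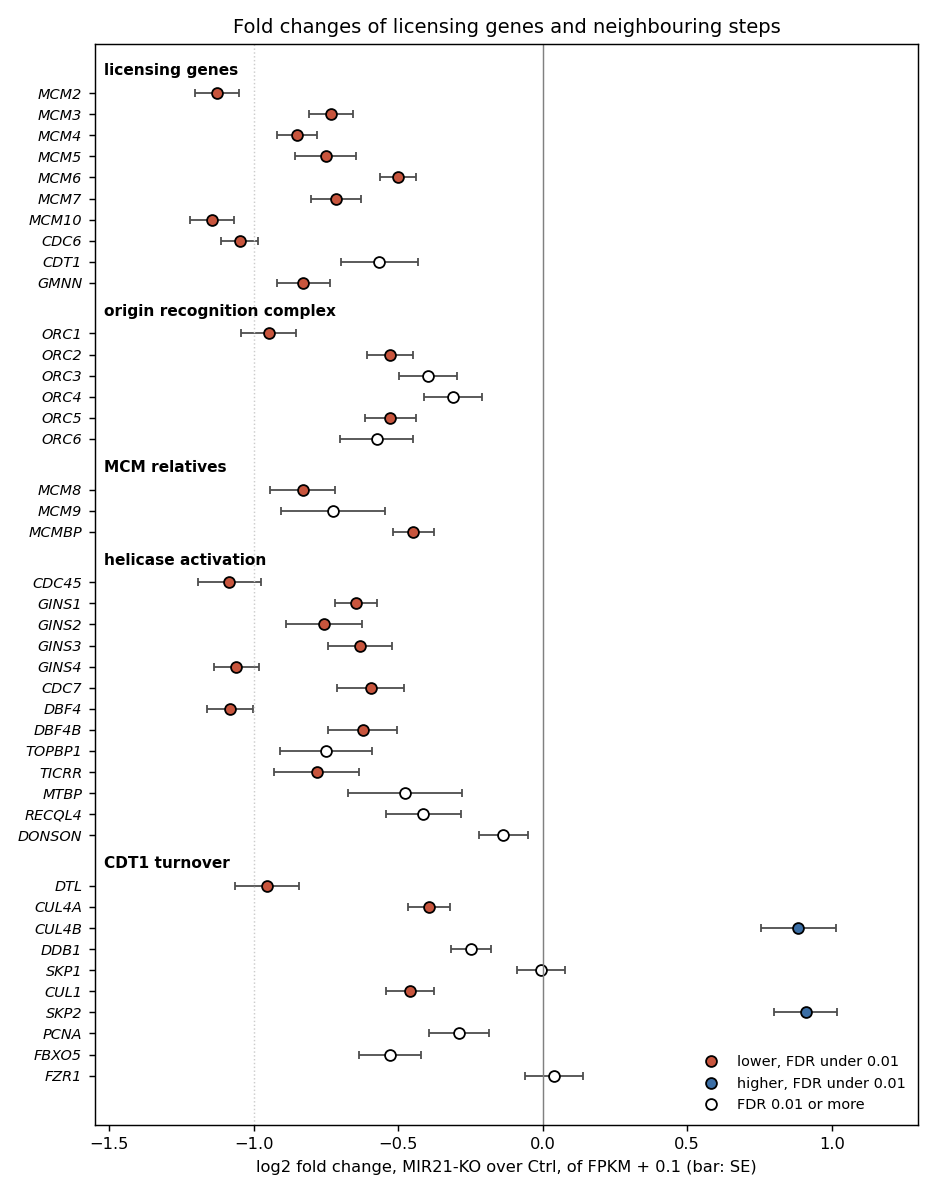
Log2 fold change (MIR21-KO over Ctrl, on FPKM + 0.1) with its SE for the 10 licensing genes and for the genes of the origin recognition complex, MCM relatives, helicase activation and CDT1 turnover. Filled points passed an FDR under 0.01 (red lower, blue higher), and SKP2 and CUL4B are the points to the right that did so.

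Neighbours that share a start region with a licensing gene did not share its fold change in each case. TPRA1 starts 44 bases from MCM2 on the other strand, and its level was 10.3 ± 0.599 FPKM in Ctrl and 9.10 ± 2.03 FPKM after deletion (log2 fold change -0.20 ± 0.167, FDR = 0.399). AP4M1 starts 391 bases from MCM7 on the other strand and was at 5.74 ± 0.338 and 6.75 ± 0.528 FPKM (0.23 ± 0.0962, FDR = 0.117). PRKDC, the DNA-dependent protein kinase gene that starts 2 bases from MCM4, was at 42.6, 32.6 and 34.5 FPKM in Ctrl and at 16.5, 20.0 and 29.1 FPKM in MIR21-KO libraries (-0.77 ± 0.214, FDR = 0.0345). None of the 3 was called, and of all genes tested 8.38% were called lower and 7.66% higher. The groups overlapped for TPRA1, whereas every AP4M1 value in MIR21-KO libraries lay above every Ctrl value. For PRKDC every MIR21-KO value lay below every Ctrl value, as for 25.2% of all genes tested. Its log2 fold change of -0.77 stood beside -0.85 for MCM4. TPRA1 and AP4M1 overlap MCM2 and MCM7 on the opposite strand, and since the strand setting of the counting is not stated, reads of such pairs may be mixed.

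The 5 genes outside these lists whose values across the 6 libraries lay nearest to the mean profile of MCM2 to MCM7 were CLUH, KPNA2, PDXK, WNT7B and PGAM5, out of 7503 genes with mean levels of 5 FPKM or more. Their root-mean-square differences from that profile were 0.0288 to 0.0348 on the log2 scale, compared with 0.043 for MCM3, itself part of that mean, and 0.264 for MCM10, the licensing genes nearest to and farthest from it. KPNA2, an importin, was at 223 ± 5.08 and 130.1 ± 4.53 FPKM in the groups (log2 fold change -0.78 ± 0.0753, FDR = 0.000682). CLUH, which binds mRNAs of mitochondrial proteins, was at 36.8 ± 0.532 and 21.8 ± 1.42 FPKM (-0.75 ± 0.0739, FDR = 0.000721). These genes were chosen for their likeness, and their values are a description.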

How the data were processed

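PolyA RNA-seq libraries of A549 cells (3 Ctrl, 3 MIR21-KO) were analysed. The sample titles gave groups and replicate numbers, and libraries were strand-specific per the labels. The authors deposited a table of FPKM per gene and library, whose submitters' processing notes name cutadapt 1.14, HISAT2 2.1.0, SAMtools 1.5, featureCounts 1.5.3, edgeR 3.18.1 and the genome build hg38. The strand setting of the counting and the annotation release are not given in the sources used here. The deposited table also holds log2 fold changes, p-values and FDRs of the authors' own comparison, which followed TMM normalization per the study's methods and were not used. FPKM times gene length gave whole reads for 100% of values (within 0.1), and the FPKM implied library sizes of 0.950 to 1.03 times the summed reads. A gene of 1 kb with no read may be present at up to 3 reads, or 0.219 to 0.279 FPKM, which covers counting error only.

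Limma 3.58.1 (R 4.3.3) was run on log2(FPKM + 0.1) of the 16006 genes whose mean reached 0.5 FPKM (eBayes with trend and robust fitting, no covariate, two-sided), adjusted by the Benjamini-Hochberg method over all of them and called at an FDR under 0.01. Fold changes are on this log2 scale, which understates those of low genes. Shares and ratios were compared by exact permutation over libraries with scipy 1.17.1. The limma fit was also tried on simulated reads with known fold changes and the same spread setting for all genes. That trial is not used to support any value given here. Coordinates, transcript lengths and 3′ UTRs came from GENCODE 29 (GRCh38, 57836 of 58174 identifiers matched), promoters and microRNAs from RefSeq (GRCh38.p14). Figures were drawn with matplotlib 3.10.9.

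The leukocyte marker list is not reported in full here. The licensing genes and all lists were chosen with earlier results of these data known. Named were the licensing genes, genes of the lists, genes starting within 1000 bases of a licensing gene on the other strand, and the 5 genes most like the mean MCM2 to MCM7 profile. Alternatives tried were leaving out each library, a replicate block, other pseudocounts, filters and scalings, an FDR of 0.05, protein-coding genes alone, limma without trend or robust fitting, voom on recovered reads, and removal of GC and length trends (lowess, span 0.3).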

Additional observations from a re-analysis of the deposited data

How the results depend on the processing

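All 10 licensing genes kept a negative fold change in each of the 20 alternatives. Several of these could not change the sign. The filters, the FDR of 0.05, protein-coding genes alone and limma without trend or robust fitting leave these fold changes as they are. A replicate block does so too, with or without removal of GC and length trends. Between 6 and 10 licensing genes were called lower when single libraries were left out, against 9 with all libraries. Of all genes tested, 368 to 1801 were called lower in these fits, against 1342 with all libraries. Calls in either direction numbered 768 to 3400 genes in all, against 2568. Those of origin recognition, helicase activation and CDT1 turnover genes were 1 to 3, 3 to 8 and 0 to 5, against 3, 9 and 5. Fits that leave out a library test fewer samples. Without Ctrl replicate 1, 2 or 3 or MIR21-KO replicate 2, the genes called in all numbered 895, 922, 873 and 768. At an FDR under 0.05, 5114 genes, 10 licensing genes and 5 origin recognition genes were called. Removal of GC and length trends gave 3960 genes. Without a filter, 4 helicase activation and 3 CDT1 turnover genes were called, and the same counts (4 and 3) were found without trend and robust fitting. The cause of these differences was not tested. The difference in the MCM5 share, 0.0595 percentage points with all libraries, ranged from -0.183 to 0.398 when single libraries were left out, being negative without Ctrl replicate 1 (-0.00256), MIR21-KO replicate 1 (-0.183) or replicate 2 (-0.0371). The CDT1 to GMNN difference ranged from 0.18 to 0.32 on the log2 scale when single libraries were left out. It was not recomputed with GC and length trends removed, where the fold changes of both genes lay closer together. Per principal transcript length, an alternative chosen after seeing the data, the MCM2 and MCM6 shares differed by -2.51 and 1.54 points. Scaling shifted the median of all genes by at most 0.035 on the log2 scale.

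Replicate numbers are shared by the groups, and the sources used here do not say whether they pair the libraries. Same-numbered libraries did not deviate together (correlations of -0.171, -0.0177 and -0.0174), and differently numbered ones gave -0.13 to 0.155. With 3 libraries per group, such values cannot exclude a pairing. With a replicate block, 651 genes in all, 5 licensing genes, 0 origin recognition genes, 3 helicase activation genes and 0 CDT1 turnover genes were called, and MCM3, MCM5, MCM6, MCM7 and CDT1 were not. With the block and GC and length trends removed together, 1770 genes, 9 licensing genes (all but MCM6), 1 origin recognition gene and 3 CDT1 turnover genes were called.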

Other observations

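Within the MIR21-KO group several licensing genes ranked the libraries alike. MIR21-KO replicate 1 held the highest value for 7 of the 10 genes and replicate 3 the lowest for 7, with MCM4 and CDC6 in the reverse order. CDT1 differed most, with a log2 ratio of replicate 3 over replicate 1 of -0.51 and a GC content of 64.9% in its longest transcript, the highest of the 10 genes. Across the 10 genes this ratio and GC content had a Pearson correlation of -0.704 and a Spearman correlation of -0.539. These are correlations across genes of the same 2 libraries, genes are not independent replicates, and the part of GC content in the spread was not tested.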
